A study of Oryza sativa with 14 samples.

Results

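The genes described here are the rice leaf genes annotated as NB-ARC proteins and read at a measurable level. They were chosen by 2 criteria: the word NB-ARC in the gene description of the deposited tables, and 10 or more raw reads in at least 7 of the 14 libraries. Of 37727 annotated loci, 222 carry the word and 110 of those passed the read threshold (49.5%). The values that chose them are read numbers over all libraries together, so the level of these genes is not a finding. Of the 112 that did not pass, 86 never reached 10 reads in any library and 36 had no read at all.

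NB-ARC is a nucleotide-binding switch domain. In plants it forms the centre of the NLR proteins, intracellular receptors that sense pathogen effectors and start a local immune response. A typical NLR has a signalling domain at its N-terminus, often a coiled coil in rice, then the NB-ARC domain with a winged helix, and a leucine-rich repeat at its C-terminus that takes part in recognition and in holding the protein off. Many cloned rice resistance genes against blast and bacterial blight encode such proteins, and NLR genes often lie in tandem clusters.

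All libraries came from wild-type plants of the japonica cultivar 'Koshihikari' grown in paddy fields. Chemical fertilizer (CF) plants received a basal dressing of 56 kg/ha N, 176 kg/ha PO4, 56 kg/ha K, 90 kg/ha Mg and 120 kg/ha SiO2. Green manure (GM) plants grew on soil into which a winter crop of hairy vetch, a legume, had been ploughed, with no chemical fertilizer; the vetch was sown at 30 kg/ha for the 2023 crop and at 60 kg/ha in total for the 2024 crop. PolyA RNA of the largest leaf was sequenced 47 days after transplanting in 2023 (4 leaves per treatment) and 38 days after transplanting in 2024 (3 per treatment). Each leaf was 1 replicate, and the treatments occupied different soils, so treatment and field cannot be told apart and the p-values measure the spread between leaves.

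Library totals ran from 8161851 to 11375515 reads in 2023 and from 13224671 to 23367369 in 2024. The 110 genes together took 14.4 to 18.1 of every 10000 reads in CF leaves of 2023, 9.51 to 14.7 in GM leaves of 2023, 9.77 to 9.89 in CF leaves of 2024 and 7.87 to 8.35 in GM leaves of 2024. Levels are given below as normalised CPM (reads per 1000000 reads of a library, put on a common scale with the trimmed mean of M values over all 14 libraries), which are not divided by gene length and so do not rank genes by transcript number. The mean CPM of single members ran from 0.82 to 144, with a median of 5.86. There were 25 members under 2 CPM and 9 over 25 CPM. In a whole leaf, fewer cells of a type and less RNA per cell cannot be told apart.

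The description and the domain column of the same tables did not always match. The InterPro entry for NB-ARC was listed for 88 of the 110 members and missing for 22, and 2 of these had no InterPro entry at all. A leucine-rich repeat was listed for 78 members, a winged helix for 73 and an N-terminal domain of the coiled-coil type for 61. The combination of NB-ARC with a leucine-rich repeat was listed for 67. By locus number, 36 members lie on chromosome 11 and 18 on chromosome 12, so these chromosomes hold 54 of the 110. The tables name loci of the IRGSP-1.0 build without coordinates, and no sequence of these genes was used here.

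In leaves of both years most NB-ARC genes were slightly lower under green manure, and a few differed strongly. In 2023 the log2 fold change of GM against CF was negative for 84 of 106 tested members (79.2%, against 50.2% of all 18577 genes tested), with a median of -0.19 where the median of all genes was -0.00. In 2024 it was negative for 71 of 106 (67.0%, against 50.9% of 19261 genes), with a median of -0.11 and a median of all genes of -0.00. Most of these differences were small: 90 members in 2023 and 84 in 2024 stayed within 0.5 of zero, and 5 and 6 members reached 1 in size.

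Few single members passed the test. By the quasi-likelihood F-test of edgeR, with p adjusted over all genes after Benjamini and Hochberg, 4 of 106 members reached an adjusted p under 0.05 in 2023 (3.77%, where 2.48% of all genes were called). Of these, 1 was higher in GM leaves, where 1.63% of all genes were called higher, and 3 were lower, where 0.851% were called lower. In 2024, 4 of 106 were called (3.77%, where 3.25% of all genes were), again 1 higher (1.89% of all genes) and 3 lower (1.36% of all genes). Both shares lie near the background. At an unadjusted p under 0.05, 22 members were lower and 2 higher in 2023 (20.8% and 1.89%, against 6.9% and 8.57% of all genes), and 14 were lower and 7 higher in 2024 (13.2% and 6.60%, against 8.17% and 8.92%). The number called in 2023 depended on single leaves: it was 2 without CF leaf 1, CF leaf 2 or GM leaf 3, 1 without CF leaf 3 or GM leaf 2, and 7 without GM leaf 1. In 2024 it was 2 without CF leaf 1, CF leaf 3 or GM leaf 3, and 9 without GM leaf 1. DESeq2 called 5 members in 2023 and 8 in 2024.

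The lean of the whole set towards lower levels did not come from the called genes alone. With the 5 genes called in either year left out, the medians were -0.19 in 2023 (80 of 101 negative) and -0.10 in 2024 (67 of 101 negative). Among the 84 members with 10 reads in every library, 70 were negative in 2023 and 58 in 2024. Scaling by plain library totals moved the median of all genes to -0.18 in 2023 and -0.21 in 2024, and that of the members to -0.37 (97 of 106 negative, against 76.4% of genes) and -0.32 (89 of 106, against 80.1%), so the members stayed below the bulk of genes under both scalings. Without GM leaf 2 the 2023 median was -0.13 and 74 members were negative.

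**Figure D1:**
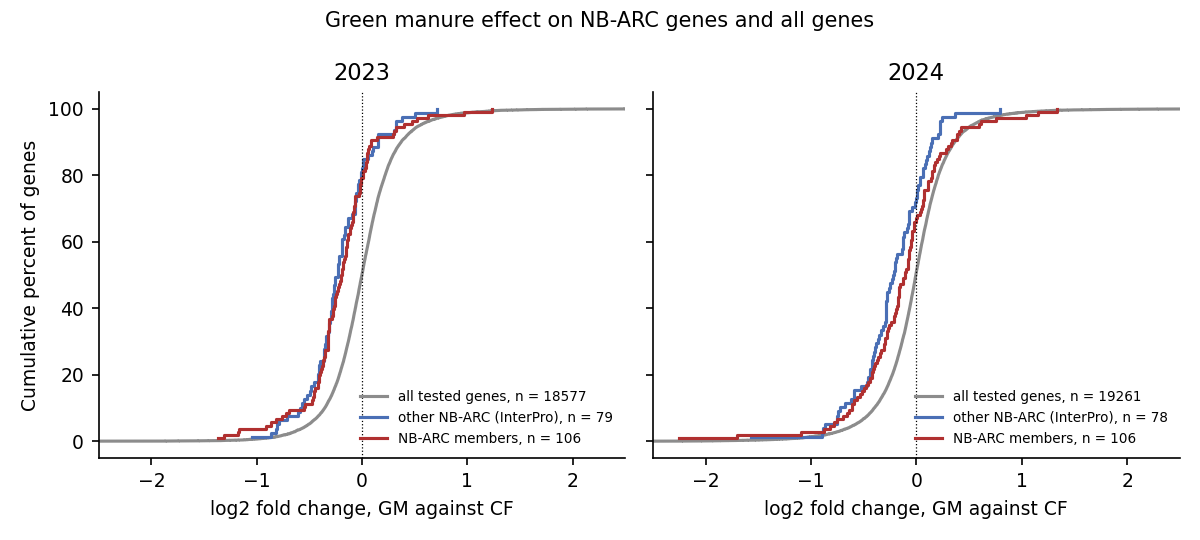
Cumulative percent of genes (y axis) by log2 fold change of GM against CF (x axis), for 2023 on the left and 2024 on the right, for all tested genes, the tested NB-ARC members, and other genes with NB-ARC among their InterPro domains. The NB-ARC curves lie to the left of the curve of all genes over most of the range, and cross zero at 79.2% (2023) and 67.0% (2024) for the members.

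Complete separation of the leaves gave the same lean. In 2023 all 4 GM leaves lay below all 4 CF leaves for 12 of 106 members (11.3%, against 4.61% of all genes) and above them for 1 (0.943%, against 5.35%). In 2024 all 3 GM leaves lay below all CF leaves for 26 of 106 (24.5%, against 10.9%) and above for 5 (4.72%, against 11.8%). Of the 102 members tested in both years, 8 were separated downward in both (7.84%, against 1.43% of 18227 genes) and 1 upward (0.980%, against 2.34%). Those separated downward were Os02g0282000, Os09g0365300, Os11g0226933, Os11g0227800, Os11g0588400, Os11g0598300, Os12g0438300 and Os12g0553600. The member separated upward was Os11g0220300.

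The genes called in at least 1 year were 5, all on chromosome 11. The strongest fall was that of Os11g0227800, whose domains form a complete coiled-coil NLR (N-terminal domain, NB-ARC, winged helix and leucine-rich repeat). Its CPM in 2023 was 38.7, 24.0, 26.6 and 23.3 in CF leaves and 16.5, 7.91, 9.98 and 8.96 in GM leaves. In 2024 it was 8.01, 8.73 and 8.81 in CF leaves and 2.07, 2.44 and 3.37 in GM leaves. The treatments did not overlap in either year, and the CF leaves of 2024 were about as low as the GM leaves of 2023. The log2 fold change was -1.37 ± 0.24 (SE) in 2023 (edgeR adjusted p = 0.0174) and -1.71 ± 0.20 in 2024 (edgeR adjusted p = 0.00166). Leaving out single leaves kept the 2023 call in 5 of 8 fits, with an adjusted p of up to 0.0594, and the 2024 call in 6 of 6.

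Os11g0226933, listed with NB-ARC, winged helix and leucine-rich repeat, followed the same order of groups. In 2023 its CPM was 42.5, 35.7, 34.9 and 25.3 in CF leaves and 24.5, 19.4, 17.0 and 15.3 in GM leaves. The 2024 values were 10.4, 9.06 and 12.6 in CF leaves and 6.28, 4.56 and 4.12 in GM leaves. The lowest CF leaf of 2023 lay just above the highest GM leaf, while the treatments of 2024 were well apart. It fell by 0.86 ± 0.17 on the log2 scale in 2023 (edgeR adjusted p = 0.0179) and by 1.10 ± 0.19 in 2024 (edgeR adjusted p = 0.0113). These calls were kept in 4 of 8 and 3 of 6 fits that each left out 1 leaf, with adjusted p of up to 0.0766 and 0.0628.

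Os11g0598300 was called in 2023 only. It is listed with an N-terminal domain, a winged helix and a leucine-rich repeat but without the NB-ARC entry. The CF leaves of 2023 had 9.75, 6.86, 6.82 and 4.94 CPM and the GM leaves 4.50, 2.98, 2.36 and 2.75. In 2024 the CF leaves had 4.41, 4.93 and 4.24 CPM and the GM leaves 3.49, 2.23 and 3.07. The treatments were separate in each year. It fell by 1.16 ± 0.25 (log2) in 2023 (edgeR adjusted p = 0.0258), a call kept in 2 of 8 fits without 1 leaf (adjusted p up to 0.119), and the 2024 value was -0.61 ± 0.22 (edgeR adjusted p = 0.165). The neighbouring member Os11g0598500, with the same listed domains, had log2 fold changes of -0.82 ± 0.34 and -0.65 ± 0.41 that did not pass the test (edgeR adjusted p = 0.261 and 0.455).

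Os11g0684700, a further complete coiled-coil NLR by its listed domains, was called in 2024 only. Its CPM in 2023 was 24.0, 20.4, 18.0 and 19.6 in CF leaves and 18.6, 12.8, 15.2 and 14.7 in GM leaves, which overlap at 1 leaf. In 2024 the CF leaves had 10.7, 10.9 and 11.1 CPM and the GM leaves 6.73, 6.99 and 6.60, with little spread within either group. The log2 fold change was -0.42 ± 0.14 in 2023 (edgeR adjusted p = 0.128) and -0.70 ± 0.13 in 2024 (edgeR adjusted p = 0.0166). The 2024 call was kept in 2 of 6 fits without 1 leaf, with an adjusted p of up to 0.0727.

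The only member called higher, Os11g0220300, is described as similar to an NB-ARC protein but is listed with a TLDc domain alone. TLDc proteins are known in animals for a role in resistance to oxidative stress, and nothing in the tables marks this gene as a receptor. In 2023 its CPM was 3.49, 2.59, 3.51 and 3.66 in CF leaves and 7.22, 10.2, 8.44 and 5.60 in GM leaves. In 2024 it was 5.00, 4.73 and 5.19 in CF leaves and 11.7, 16.9 and 9.75 in GM leaves. Every GM leaf lay above every CF leaf of its year. It rose by 1.24 ± 0.22 (log2) in 2023 (edgeR adjusted p = 0.00747) and by 1.33 ± 0.20 in 2024 (edgeR adjusted p = 0.0052), and each call was kept in all 8 and all 6 fits without 1 leaf. Among the 88 members that do have the NB-ARC entry, edgeR called none higher in either year (at an unadjusted p under 0.05, 1 of 86 tested in 2023 and 4 of 84 in 2024; DESeq2 called 0 and 1 higher), against 2 lower in 2023 and 3 lower in 2024.

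**Figure D2:**
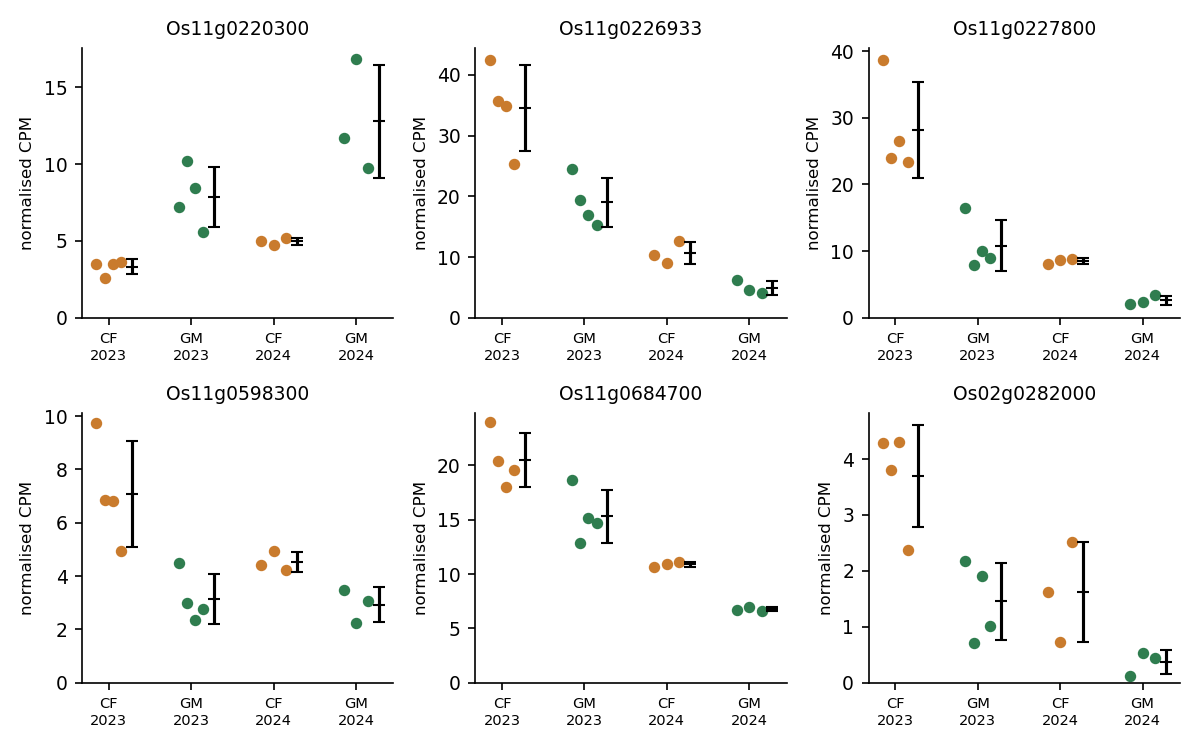
Normalised CPM per leaf (y axis, linear from 0) in the 4 groups for the 5 genes called in at least 1 year and for Os02g0282000, which was not called. Points are leaves (orange CF, green GM) and bars are the mean ± SD over 4 leaves in 2023 and 3 in 2024; Os11g0220300 is higher under GM in both years and the other genes are lower.

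Os02g0282000, with NB-ARC, winged helix and leucine-rich repeat, had the lowest log2 fold change of 2024 and fell short of the threshold. Its CPM was 4.30, 3.8, 4.31 and 2.38 in CF leaves and 2.17, 0.719, 1.91 and 1.02 in GM leaves of 2023. The leaves of 2024 had 1.62, 0.733 and 2.52 in CF leaves and 0.129, 0.53 and 0.45 in GM leaves. The leaves did not overlap in either year, yet the levels are near the limit of detection. The log2 fold changes were -1.31 ± 0.34 and -2.25 ± 0.57 (edgeR adjusted p = 0.0567 and 0.0572). DESeq2 called it in both years (adjusted p = 0.0135 and 0.0182). It passed the read threshold in 7 CF libraries and 3 GM libraries, the 1 member for which these numbers differed by 4 or more.

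Green manure values of the members were correlated between years, which share no leaf. Of 102 members tested in both years, 61 were negative in both (59.8%, against 31.4% of 18227 genes), 11 positive in both (10.8%, against 30.4%), 21 negative in 2023 and positive in 2024, and 9 the reverse. Since most members were negative in each year, many would be negative in both without any relation between the years. Across these 102 genes Pearson's r of the log2 fold changes was 0.59 and Spearman's rho 0.42, and no correlation over all genes is given beside them. Genes are not independent replicates, and all values of a year rest on the same libraries. Called in both years in the same direction were 3 members (2.94%, against 0.911% of genes).

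**Figure D3:**
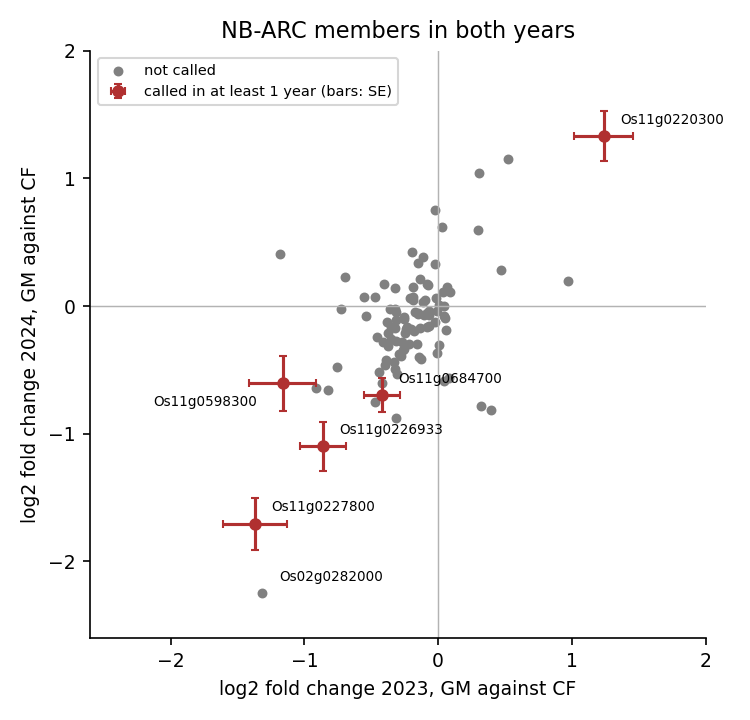
Log2 fold change of GM against CF in 2024 (y axis) against that in 2023 (x axis) for the 102 members tested in both years. Red points with SE bars are the 5 members called in at least 1 year; most grey points sit close to zero in the lower left, where 61 members lie.

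A test of the difference between the years called no member. In 1 fit of all 4 groups, edgeR called 0 of 110 members for the interaction (0.0101% of 19805 genes were called), and 2 had an unadjusted p under 0.05 (6.32% of genes did); DESeq2 called 0, with 3 at an unadjusted p under 0.05. The smallest edgeR adjusted p among members was 0.687. The 2 members at an unadjusted p under 0.05 in edgeR were Os08g0261000 and Os05g0414300. Os08g0261000, a complete coiled-coil NLR by its domains, had a difference of 1.59 ± 0.59 (log2, 2024 minus 2023). Os05g0414300, listed with NB-ARC, winged helix and leucine-rich repeat, had a difference of 0.36 ± 0.15. For Os08g0261000 the CF leaves of 2023 had 3.58, 3.24, 3.51 and 2.1 CPM and the GM leaves 0.854, 0.514, 1.91 and 2.24, while in 2024 CF leaves had 1.47, 1.13 and 1.52 and GM leaves 0.971, 1.59 and 3.00. Its groups overlapped in both years.

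Further members with the same sign in both years did not pass the test in either. On the higher side, those whose smaller change was largest were Os03g0599000 (log2 fold change 0.52 ± 0.27 and 1.15 ± 0.35), Os09g0517100 (0.31 ± 0.25 and 1.04 ± 0.31), Os07g0117000 (0.29 ± 0.23 and 0.60 ± 0.27) and Os06g0693100 (0.47 ± 0.17 and 0.28 ± 0.17). Os03g0599000 in 2024 had 0.60 to 1.03 CPM in CF leaves and 1.38 to 1.88 in GM leaves, without overlap. Os09g0517100 in 2024 had 2.20, 2.80 and 3.33 CPM in CF leaves and 3.24, 6.78 and 7.72 in GM leaves, with 1 GM leaf inside the CF range. DESeq2 called it in 2024 (adjusted p = 0.0245), edgeR did not (adjusted p = 0.104). On the lower side, Os06g0276300 had -0.91 ± 0.37 and -0.64 ± 0.34. Os12g0438300, with NB-ARC and an N-terminal domain only, had 27.6 to 39.7 CPM in CF leaves of 2023 and 19.7 to 27.2 in GM leaves, then 22.7 to 26.7 and 14.5 to 20.3 in 2024. Its groups were separate in both years, with log2 fold changes of -0.44 ± 0.13 and -0.52 ± 0.13 (edgeR adjusted p = 0.0877 and 0.0588). DESeq2 called it in 2024 (adjusted p = 0.0417) and not in 2023.

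Some members had opposite signs in the 2 years, and the 3 of each pattern whose smaller change was largest are given here. Higher in 2023 and lower in 2024 were Os09g0479500 (0.39 ± 0.45, then -0.82 ± 0.43), Os11g0673900 (0.32 ± 0.41, then -0.78 ± 0.37) and Os04g0512900 (0.08 ± 0.30, then -0.56 ± 0.34). Lower in 2023 and higher in 2024 were Os08g0261000 (-1.18 ± 0.39, then 0.41 ± 0.39), Os03g0689400 (-0.69 ± 0.44, then 0.23 ± 0.40) and Os12g0273300 (-0.20 ± 0.35, then 0.42 ± 0.47). The mean levels of these 6 lay between 1.01 and 2.36 CPM, and none of these 12 values passed the test.

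None of the 5 members with the most reads passed the test. Os11g0588600 carries the symbol XA39, a name of bacterial blight resistance, and is listed with NB-ARC and an N-terminal domain but no leucine-rich repeat. Its CPM was 150 ± 2.42 (SD, n = 4) in CF and 134 ± 10.8 (n = 4) in GM leaves of 2023, and 148 ± 4.78 (n = 3) and 145 ± 17.2 (n = 3) in 2024. The log2 fold changes of -0.17 ± 0.09 and -0.05 ± 0.10 did not pass the test. Os01g0359400, the next in read number, had 104 ± 5.87 and 98.3 ± 17.8 CPM in 2023 and 91.6 ± 4.58 and 104 ± 17.1 in 2024, with overlapping groups in both years. Os12g0516300 (-0.24 ± 0.11 and -0.18 ± 0.10), Os01g0937400 (-0.21 ± 0.14 and 0.06 ± 0.10) and Os12g0270300 (0.09 ± 0.10 and 0.11 ± 0.10) followed, none of them called. The last of these and the 2024 values of Os01g0359400 and Os01g0937400 turn negative when libraries are scaled by plain totals.

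Members with a symbol like that of a cloned resistance gene did not pass the test in either year. Os06g0146100 is annotated as Pi9, a broad-spectrum blast resistance gene. It had 7.72 to 10.3 CPM in CF and 8.01 to 11.9 in GM leaves of 2023, and 10.4 to 12.2 and 9.45 to 12.9 in 2024. These ranges overlap throughout, and the log2 fold changes were 0.05 ± 0.17 (negative with plain totals) and -0.08 ± 0.15. Os12g0281600, annotated as Pi42 and also a blast resistance name, had -0.13 ± 0.17 and -0.41 ± 0.19. Os11g0606500 carries the name RPM1, after an Arabidopsis receptor for bacterial effectors, and had -0.19 ± 0.17 and 0.15 ± 0.23 (the latter negative with plain totals). The name of the Arabidopsis downy mildew receptor RPP13 is given to Os11g0668100 (-0.01 ± 0.27 and -0.37 ± 0.31). Os01g0953400 carries the symbol RPP13L4 (-0.14 ± 0.30 and -0.17 ± 0.25), and Os11g0673900, given above, the symbol DRP-RP13. Symbols made of YR and a number are given to the neighbours Os08g0296600 (-0.24 ± 0.19 and -0.21 ± 0.21) and Os08g0296700 (-0.29 ± 0.19 and -0.38 ± 0.17), and to Os11g0226800 (-0.32 ± 0.21 and -0.05 ± 0.25). The annotation does not say what these YR symbols stand for. These names come from the deposited annotation, and whether 'Koshihikari' holds a working allele was not examined.

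Median values were below zero in each domain class in both years, by differing amounts. Members with both NB-ARC and a leucine-rich repeat had medians of -0.23 (65 tested, 2023) and -0.12 (63 tested, 2024), and members with NB-ARC but no leucine-rich repeat -0.17 and -0.10 (21 tested in each year). Those without the NB-ARC entry had -0.15 (80.0% of 20 negative) and -0.06 (59.1% of 22), and all those with it -0.20 (79.1% of 86) and -0.12 (69.0% of 84). By description, those described directly as NB-ARC proteins had -0.22 and -0.16 (72 tested, 70.8% negative in 2024), and those described only as similar to one -0.19 and -0.04 (34 tested, 58.8% negative in 2024). Differences between these classes were not tested. By level, the 55 members above the median CPM had medians of -0.19 and -0.10, and the 51 tested below it -0.20 and -0.11, so the lean was not limited to weakly read genes.

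By chromosome, members of chromosome 11 had medians of -0.18 (28 of 36 negative) in 2023 and -0.09 (23 of 34) in 2024, and those of chromosome 12 -0.22 (15 of 18) and -0.10 (12 of 18). Of pairs that follow each other directly in the locus order of the tables there were 13, made of 25 genes. The annotated blight gene Os11g0588600 and its neighbour Os11g0588400, a complete coiled-coil NLR by domains, differed in size: the latter had 17.9 to 18.7 CPM in CF and 9.56 to 17.2 in GM leaves of 2023, then 15.3 to 17.2 and 12.8 to 15.0 in 2024. Its groups were separate in both years, but the log2 fold changes of -0.37 ± 0.16 and -0.21 ± 0.12 did not pass the test. Neighbouring NLR genes are often near copies, and reads that match several copies may be lost or shared in counting, so values of neighbours are uncertain to that extent.

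A run of 53 loci on chromosome 11 from Os11g0220300 to Os11g0227800 held 3 of the 5 called members. Of these loci 24 were tested in at least 1 year, and 7 are members. Os11g0220400, Os11g0222200 and Os11g0222900 were tested in 2023 only. The share of all genes called was 2.48% in 2023 and 3.25% in 2024. In each year 4 loci of the run were called, 3 of them members. The other one was Os11g0227100, described as similar to an NBS-LRR protein and so outside the rule, which was named after its values were seen. It lies among the 8 loci between Os11g0226933 and Os11g0227800. Its CPM was 22.2, 17.7, 20.6 and 15.3 in CF and 12.1, 12.1, 10.1 and 10.2 in GM leaves of 2023, and 6.83, 5.86 and 6.67 in CF and 2.46, 2.86 and 2.70 in GM leaves of 2024. The groups were separate and in the same order as for the neighbouring members, with a fall of 0.77 ± 0.14 (log2) in 2023 (edgeR adjusted p = 0.00983) and of 1.29 ± 0.19 in 2024 (edgeR adjusted p = 0.00472). The run was chosen because called members bound it, so the calls at its ends are not evidence for a regional effect. Whether the calls inside the run reflect a regional effect was not tested.

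**Figure D4:**
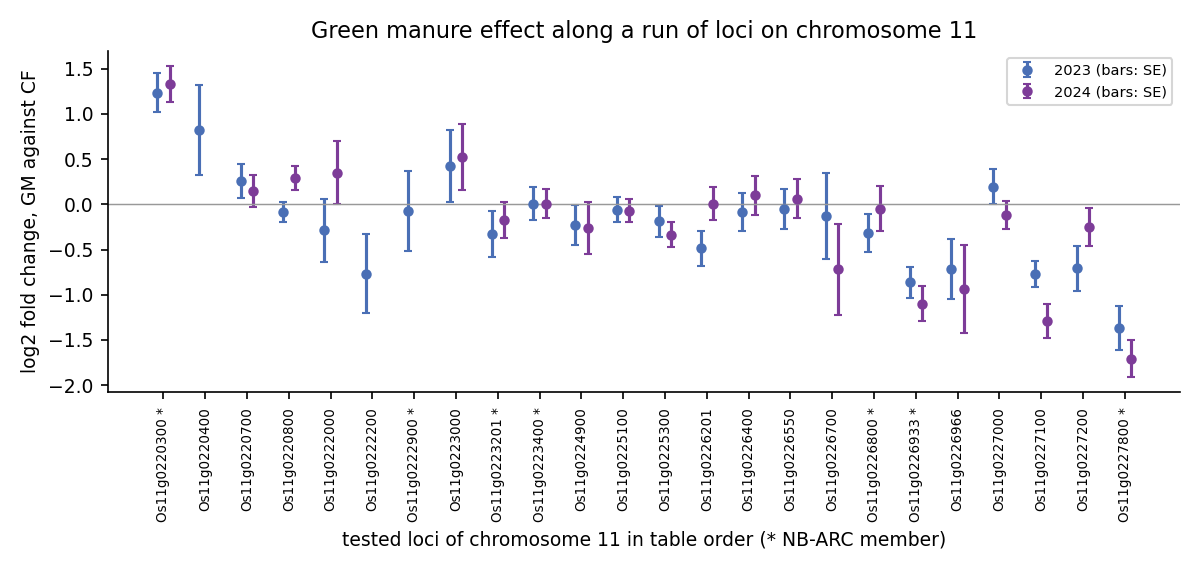
Log2 fold change of GM against CF ± SE (y axis) for the 24 tested loci of the run on chromosome 11, in the order of the deposited tables (x axis; asterisks mark NB-ARC members). The first locus is above zero in both years, Os11g0226933, Os11g0227100 and Os11g0227800 at the other end are below it, and no other locus of the run was called.

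The summed level of the 110 members was 1430, 1426, 1345 and 1260 CPM in CF leaves of 2023 (mean 1365 ± 80.1, SD) and 1294, 985, 1242 and 1234 in GM leaves (1189 ± 138). In 2024 it was 1068, 1107 and 1092 in CF leaves (1089 ± 19.5) and 1000, 1103 and 1051 in GM leaves (1051 ± 51.4). The treatments overlap in both years, by 1 GM leaf in 2023. GM leaf 2 of 2023 had the lowest sum of all leaves and was the lowest of its group for 68 of the 110 members. Markers of leaf mesophyll (chlorophyll a/b-binding proteins, a photosystem II subunit and the Rubisco small subunit) moved the other way. All 4 had positive log2 fold changes in each year. In each year edgeR called 3 of them higher, where 1.63% of all genes were in 2023 and 1.89% in 2024. DESeq2 called 3 of the markers higher in 2023 and 4 in 2024. Their summed level was 9900 to 19895 CPM in CF and 22058 to 47220 in GM leaves of 2023, the highest being that same leaf 2, and 36259 to 43227 and 54005 to 94336 in 2024. The part of this shift in the NB-ARC values was not tested. Of the root markers OsLsi2 was at 0 in every library. OsLsi1 (21.0 CPM on average) had log2 fold changes of 0.89 ± 0.22 and 0.39 ± 0.13 that did not pass the test (edgeR adjusted p = 0.0633 and 0.136). DESeq2 called OsLsi1 higher in 2023 and not in 2024. Its GM leaves of 2024 lay above all CF leaves (26.5 to 34.3 against 19.3 to 24.8 CPM), while those of 2023 overlapped with CF.

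**Figure D5:**
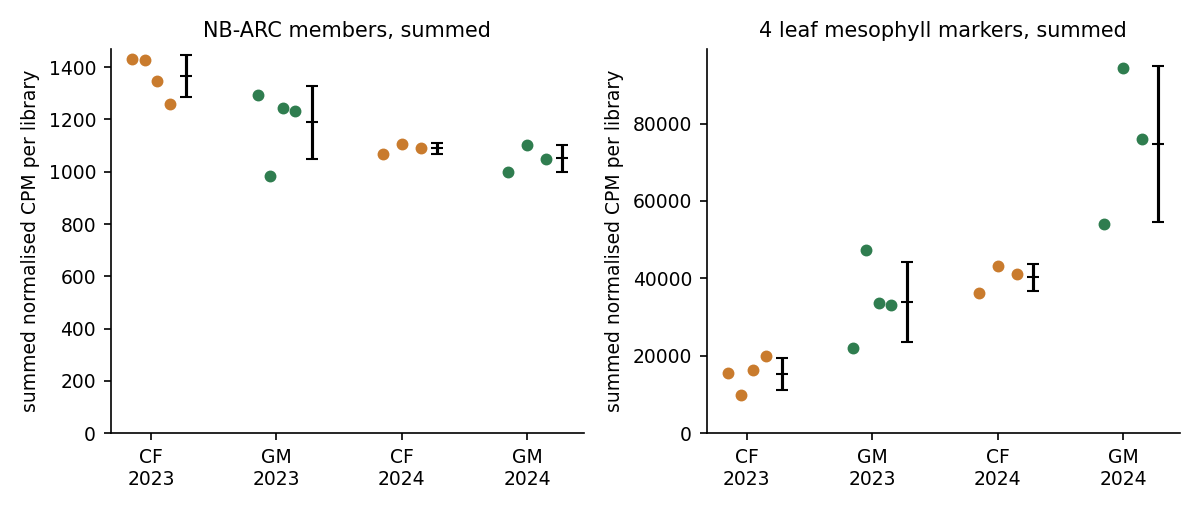
Summed normalised CPM per leaf (y axes, linear from 0) of the 110 NB-ARC members on the left and of 4 leaf mesophyll markers on the right, by group. Points are leaves and bars the mean ± SD; the NB-ARC sum is highest in CF leaves of 2023, the marker sum in GM leaves of 2024.

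Levels also differed between years. In CF leaves all 2024 values lay below all 2023 values for 51 of 110 members (46.4%, against 24.2% of genes) and above for 8 (7.27%, against 23.7%). In GM leaves these numbers were 27 (24.5%, against 19.3%) and 6 (5.45%, against 19.1%). Year, plant age at sampling, sequencing depth and the table of origin cannot be told apart in this contrast. For GM leaves the vetch seed rate, 30 kg/ha for 2023 and 60 kg/ha in total for 2024, cannot be told apart from these either.

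The lean towards lower levels was shared by NB-ARC genes outside the rule. Another 80 genes have NB-ARC among their InterPro domains, carry other descriptions and pass the same read threshold. Their medians were -0.23 in 2023 (64 of 79 negative, 81.0%) and -0.22 in 2024 (57 of 78 negative, 73.1%). In 2023 edgeR called 0 of them (14 lower and 0 higher at an unadjusted p under 0.05; DESeq2 called 2 lower), and in 2024 it called 1, lower. In 2024, 13 of these other genes were lower and 1 higher at an unadjusted p under 0.05, and DESeq2 called 1 lower. Cell-surface receptor kinases with leucine-rich repeats had medians of -0.17 (18 of 25 negative) and -0.14 (20 of 27 negative). Whether these kinases act in immunity was not examined. Of these edgeR called 0 in 2023 and 1 in 2024, lower. In 2023, 7 were lower and 1 higher at an unadjusted p under 0.05, and DESeq2 called 1 lower. In 2024, 6 were lower and 1 higher at that level, and DESeq2 called 2 lower. Of all genes, edgeR called 0.851% lower in 2023 and 1.36% in 2024. At an unadjusted p under 0.05, 6.9% of all genes were lower and 8.57% higher in 2023, and 8.17% and 8.92% in 2024.

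Among chaperones and signalling partners of NLR proteins, 1 gene was called, in 2024. RAR1 and SGT1, which with HSP90 hold NLR proteins in a competent state, had log2 fold changes of -0.20 ± 0.14 and 0.25 ± 0.12 (RAR1) and of -0.15 ± 0.10 and -0.12 ± 0.10 (SGT1). EDS1 and PAD4, which carry signals of one class of NLR proteins in Arabidopsis, had 0.26 ± 0.12 and 0.15 ± 0.09 (EDS1) and -0.10 ± 0.09 and -0.22 ± 0.09 (PAD4). The small GTPase OsRac1 had 0.39 ± 0.25 and 0.41 ± 0.17. None of these passed the test. Over the 17 tested genes of this list, edgeR called 0 in 2023 (2.48% of all genes were called), with a median of -0.10. At an unadjusted p under 0.05, 1 was higher and 1 lower (8.57% and 6.9% of all genes), and DESeq2 called 0. In 2024 edgeR called 1 (3.25% of all genes were called), with a median of -0.14. At an unadjusted p under 0.05, 5 were lower and 1 higher in 2024 (8.17% and 8.92% of all genes). All GM leaves of 2024 lay below all CF leaves for 5 of the 17 (10.9% of all genes) and above them for 3 (11.8% of all genes). The called gene, the salicylate co-regulator OsNPR1, fell by 0.90 ± 0.20 on the log2 scale (edgeR adjusted p = 0.0337), after -0.28 ± 0.17 in 2023 (edgeR adjusted p = 0.459).

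Of 4 tested salicylate-linked and pathogenesis-related defence genes, 1 was called lower under green manure in 2023, where 0.851% of all genes were. In 2024, 3 were called lower, where 1.36% of all genes were. The 4 genes have differing roles, and what their changes mean for defence was not tested. OsWRKY45, a transcription factor of salicylate-dependent resistance in rice, fell by 0.49 ± 0.11 in 2023 (edgeR adjusted p = 0.0302) and by 1.28 ± 0.15 in 2024 (edgeR adjusted p = 0.00297). OsWRKY62, which acts with it, fell in 2024 by 1.77 ± 0.27 (edgeR adjusted p = 0.00583) after a value of -0.65 ± 0.23 in 2023 that did not pass. The salicylate hydroxylase OsS3H fell in 2024 by 1.81 ± 0.34 (edgeR adjusted p = 0.0207), and its 2023 value of -0.58 ± 0.40 did not pass. The pathogenesis-related gene PBZ1 had 0.04 ± 0.12 and -0.04 ± 0.08. OsPR1a averaged 0.276 CPM and OsPR1b was at 0 in every library, so neither was tested.

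At the read threshold itself, the 3 members just inside were Os07g0521800 (10 reads or more in 7 libraries, 136 reads in all), Os08g0235651 (7 libraries, 156 reads) and Os11g0462500 (8 libraries, 147 reads). Just outside were Os08g0387700, Os12g0468300 and Os03g0324600, each with 5 such libraries and with 142, 136 and 106 reads in all. The read numbers on the 2 sides were alike. In total, 84 members reached 10 reads in all 14 libraries and 7 members did so in 7 to 9. Every member had such libraries in both treatments. Some met the rule on their 7 CF libraries alone and had fewer in GM. Among these were Os02g0282000 (3 GM libraries) and Os03g0689400, Os09g0479500 and Os11g0598500 (4 GM libraries each). Os03g0599000 had 7 such GM libraries and 6 such CF libraries. Of the 110, 4 were not tested in 2023 and 4 in 2024 because they failed the filter on low counts in that year.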

How the data were processed

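RNA-seq of polyA RNA from rice leaves was analysed in 14 libraries, 4 per treatment in 2023 and 3 per treatment in 2024, grouped by their titles. The deposited values are raw counts per locus, described by the labels as unique exon reads, against build IRGSP-1.0 per the submitters' processing notes. Libraries were directional per the labels' protocols. Neither aligner nor counter nor strand use is given in the sources used here, so overlapping antisense genes cannot be told apart. Among the columns of 2024, 2 with per-sample values that no label describes were not used. No pair of libraries was identical.

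For each year separately, genes with low counts were removed by filterByExpr (10 reads as the minimum count, 15 as the minimum total), libraries were scaled by TMM, and treatments were compared with the robust quasi-likelihood F-test of edgeR 4.0.16 (limma 3.58.1, data.table, version 1.17.8, and R 4.3.3). Genes at a Benjamini-Hochberg adjusted p under 0.05 over all genes were called. The interaction was fitted on all 4 groups. The SE is the log2 fold change divided by the root of its F statistic. The procedure was run on simulated counts with a common dispersion, in which only genes above a minimum mean count were changed. Its outcome does not bear on weakly read members. Alternatives were DESeq2 1.42.0, its size factors, plain totals, no filter and a filter at 5 CPM, a replicate block, 1 fit of all 14 libraries, other choices of members, and libraries left out.

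The members and lists were chosen with earlier results of these data known. Genes named are the called members, the 5 in each direction with the largest smaller change over both years, the 3 in each pattern of opposite signs, the 5 with most reads, those with resistance gene names, and the 3 on each side of the threshold. Os09g0365300, Os11g0588400, Os12g0438300, Os12g0553600, Os05g0414300 and Os11g0227100 were named outside this rule, after their values were seen, and the set of other NB-ARC genes was also formed then. Of the members, 0 matched the RefSeq table given by locus. Of the partner list, 6 loci were left out because their descriptions name another kind of protein.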

Additional observations from a re-analysis of the deposited data

Results flagged for a closer look

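Among the named members, 70 groups of 4 leaves were tested for a single leaf far from the others, and 6 were flagged; chance flags about 1 in 20 groups. The CPM of Os01g0953400 in CF leaf 1 of 2023 was 3.85, against 2.65 to 2.81 in the other 3 leaves. For Os06g0146100 (Pi9), GM leaf 4 of 2023 had 11.9 CPM, against 8.01 to 8.62. For Os08g0296700, CF leaf 4 of 2023 had 8.97 CPM, against 12.7 to 13. For Os11g0220300, CF leaf 2 of 2023 had 2.59 CPM, against 3.49 to 3.66. For Os11g0598500, GM leaf 1 of 2023 had 2.33 CPM, against 1.03 to 1.18. For Os12g0516300, CF leaf 4 of 2023 had 55.3 CPM, against 61.8 to 62.5.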

How the results depend on the processing

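The 4 members called in 2023 became 8 without GM leaves 1 and 2, and 1 to 7 when single leaves were left out. The 4 called in 2024 became 8 with DESeq2, 12 with plain library totals, 8 without a filter and 2 to 9 when single leaves were left out. The 2023 median was -0.37 with plain totals and -0.24 to -0.13 without single leaves. The 2024 median was -0.32 with plain totals, -0.085 in 1 fit of all libraries, -0.090 over members with 10 reads in all 14 libraries and -0.14 to -0.10 without single leaves. No member was called for the difference between years under any of 22 alternatives. Of 8 calls of named genes by year, 0 reversed, and all 20 losses came from leaving out 1 leaf. The cause of these changes was not tested.

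The correlation of same-numbered leaves was not over 0.1 in every pair of either year (correlations -0.12, 0.05, 0.15 and -0.09 in 2023, and 0.26, 0.20 and -0.00 in 2024), so the numbers are not taken as pairs. In 2024, 2 of 3 numbers correlated best with their own number, and in 2023, 0 of 4, a hint from the data and not from the design. With the replicate block 5 members were called in 2023 and 10 in 2024, with a 2024 median of -0.12, and the 2023 value of Os11g0668100 turned to 0.016.

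Reversals concerned no called value and reached 0.37 in size, for Os08g0235651 in 2024 (0.39 with all leaves). With plain totals the 2023 values turned to -0.089 for Os04g0512900, -0.13 for Os06g0146100 and -0.10 for Os12g0270300. The 2024 values turned to -0.047 for Os01g0359400, -0.16 for Os01g0937400, -0.063 for Os11g0606500 and -0.10 for Os12g0270300. Without GM leaves 1 and 2 of 2023, Os01g0953400 turned to 0.25 and Os11g0668100 to 0.090. Without single leaves, ranges that crossed zero in 2023 were -0.16 to 0.036 (Os01g0359400), -0.39 to 0.048 (Os01g0953400), -0.12 to 0.28 (Os04g0512900), -0.093 to 0.13 (Os06g0146100), -0.16 to 0.13 (Os11g0668100) and -0.47 to 0.0028 (Os12g0273300). In 2024 they were -0.030 to 0.14 (Os01g0937400), -0.11 to 0.60 (Os03g0689400), -0.24 to 0.012 (Os06g0146100), -0.37 to 0.69 (Os08g0235651), -0.17 to 0.76 (Os08g0261000), -0.15 to 0.045 (Os11g0226800), -0.10 to 0.051 (Os11g0588600) and -0.023 to 0.29 (Os11g0606500). Members under 2 CPM rest on few reads, which limits the precision of their fold changes.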
